A study of Mus musculus with 7 samples.

Results

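The 8 genes described here had some of the steepest falls, alike in both libraries, when C2C12 cells received an siRNA against the long noncoding RNA lnc-31. C2C12 is an established mouse myoblast line, grown here as proliferating cells. The knockdown had 2 libraries treated with a scrambled siRNA (genotype label control) and 2 treated with si-lnc-31 (genotype label lnc31 knockdown). A second experiment recovered RNA with biotinylated antisense probes against lnc-31, or against lacZ as background, with 1 library per probe set. The labels name no clone and do not say that replicates were separate cultures. Each p-value therefore reflects only how far these libraries differ from each other, which may be technical.

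The 8 are Nomo1, Pigs, Rnf11, Prpf18, Clta, Prkcb, Nptx1 and Lce1g, out of 13376 rows of the FPKM table (fragments per kilobase of transcript, scaled to the mapped fragments of the library). They were chosen from the values of the knockdown itself, as genes of unrelated function with the steepest falls. Their fold changes are therefore given as descriptions, without a test, and support nothing by themselves. The 11500 rows that averaged at least 1 FPKM over the 4 libraries were compared on the log2(FPKM + 1) scale, and all 8 genes were among them. Lce1g was nearest to that limit, with a mean of 1.19 FPKM over the 4 libraries, and it passed through its scrambled siRNA libraries.

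Several of the genes work in protein assemblies whose other subunits are well known, which allows a subunit to be set beside its partners. Nomo1 encodes a membrane protein of the endoplasmic reticulum that pairs with nicalin and Tmem147 at the translocon, the channel through which new membrane and secreted proteins pass. Pigs encodes a subunit of the GPI transamidase, which attaches the lipid anchor of many surface proteins. Prpf18 acts in the second step of splicing, Clta is the clathrin light chain a of coated vesicles, and Rnf11 is a RING finger protein of the A20 ubiquitin-editing complex. Prkcb is a calcium- and diacylglycerol-dependent kinase, Nptx1 a secreted pentraxin known from synapses, and Lce1g a structural protein known from the cornified layer of skin.

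The targeted locus comes first. The row that names Mir31, whose host transcript lies at the lnc-31 locus, stood at 13.4 and 15.6 FPKM with scrambled siRNA and 12.1 and 14.1 FPKM in libraries labelled lnc-31 siRNA (limma log2 fold change -0.14, SE 0.099, adjusted p = 0.38). The groups overlapped, so this row did not show a fall of the targeted RNA, and each direction below is that of the libraries labelled lnc-31 siRNA. Rock1, the kinase mRNA named in the title of the series, had a log2 fold change of 0.07 (limma, adjusted p = 0.38), and Ybx1, which encodes YB-1, one of -0.04 (adjusted p = 0.56). The sources used here do not give the sequence of the siRNA. Whether it matches any of the 8 messages was not tested, and an off-target effect of the siRNA and an effect of lnc-31 cannot be told apart with 1 siRNA label.

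All 6 myoblast markers listed (Myod1, Myf5, Myog, Des, Cdh15, Itga7) were present. Their summed level was 426 to 443 FPKM in the scrambled siRNA libraries and 532 to 543 in those labelled lnc-31 siRNA. Limma called 4 of them higher (Myod1, Myog, Des and Cdh15), beside 5.64% of all tested rows called higher. The mean of Myog alone rose from 64.8 to 107 FPKM. Myf5 went the other way, at 38.6 and 37.5 FPKM against 35.2 and 35.4, and was not called. Itga7 was higher and was not called either. Of 4 fibroblast markers 3 had a row and 2 were called higher (Pdgfrb and Dcn), with sums of 50.8 and 51.9 FPKM against 63.3 and 64.1. Of 4 blood markers Cd68 alone had a row, at 1.49 and 1.65 FPKM against 1.27 and 1.14, and none of 3 endothelial markers had one. Whether these shifts have a part in the falls below was not tested. Rank correlations across tested rows were 0.993 between the scrambled siRNA libraries and 0.990 between the others. The number of reads is unknown from FPKM, so no counting interval can be given. Summed FPKM ran from 1515600 to 2466050 per library, while the median of tested rows stayed between 13.9 and 14.4 FPKM. In bulk RNA, fewer cells of a type and less RNA per cell cannot be told apart.

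Nomo1 and Pigs, the secretory pathway genes among the 8, fell by more than 2-fold. Nomo1 measured 28.8 and 28.04 FPKM with scrambled siRNA and 11.7 and 11.1 in libraries labelled lnc-31 siRNA. The lower of the scrambled values was 2.40 times the higher of the others, while values within a group differed by 1.03-fold and 1.05-fold. On average 40.2% of the scrambled level was left (log2 fold change -1.24). Pigs was at 30.1 and 30.7 FPKM against 13.9 and 12.9, which left 44.1% (log2 fold change -1.12). The groups of Pigs were 2.16-fold apart at their closest.

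Clta and Rnf11 were the most abundant of the 8. Clta was at 181 and 188 FPKM with scrambled siRNA, above 95.8% of tested rows, and at 92.8 and 102 in libraries labelled lnc-31 siRNA. Its fall of 1.89-fold was the smallest of the 8 on the FPKM scale, with 52.8% left (log2 fold change -0.92). Rnf11 stood at 58.0 FPKM in both scrambled siRNA libraries and at 28.4 and 29.7 in the others, so that 50.1% was left (log2 fold change -0.97). The spliceosome factor Prpf18 was at 17.9 and 17.5 FPKM against 8.33 and 8.75, with 48.1% left (log2 fold change -0.97). In each of these genes the libraries of a group lay much closer together than the groups did.

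The remaining genes were low in myoblasts. Nptx1 measured 6.28 and 6.48 FPKM with scrambled siRNA and 1.91 and 1.99 in libraries labelled lnc-31 siRNA, a 3.27-fold fall (log2 fold change -1.32). Prkcb was at 3.62 and 4.25 FPKM against 1.74 and 1.51, a 2.42-fold fall (log2 fold change -0.91), and had the widest spread within the scrambled group, 1.17-fold. Lce1g was at 1.95 and 1.88 FPKM against 0.439 and 0.515. Its 4.01-fold fall on the FPKM scale was the largest of the 8, and on the log2(FPKM + 1) scale it reads -0.98, because the added 1 compresses changes of low genes. With 0.1 added in place of 1, its log2 fold change was -1.81, and that of Nptx1 was -1.66.

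**Figure D1:**
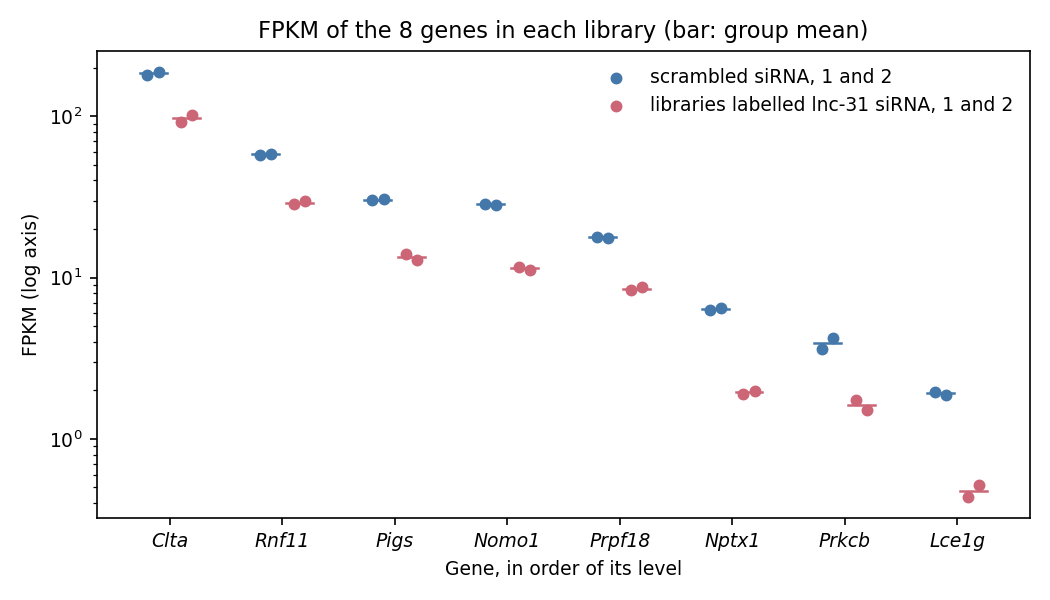
Points show the FPKM (log axis) of the 8 genes in the 2 scrambled siRNA libraries (blue) and the 2 libraries labelled lnc-31 siRNA (red), and bars show group means. The groups do not overlap in any of the 8 genes, from Clta at 181 and 188 FPKM with scrambled siRNA down to Lce1g at 1.95 and 1.88.

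The 8 genes spanned scrambled siRNA means from 1.91 to 184.5 FPKM. On the FPKM scale the most abundant, Clta and Rnf11, had the smallest falls (to 52.8% and 50.1% of the scrambled level), and the low genes Lce1g and Nptx1 the largest. On the log2(FPKM + 1) scale a low gene needs a larger fold to reach the same value. Their median log2 fold change was -0.98, against -0.01 over all tested rows. In all 8 both libraries labelled lnc-31 siRNA lay below both scrambled siRNA libraries, which holds for 31.7% of tested rows and was part of the choice of the genes. In 5 of the 8, the library labelled lnc-31 siRNA 1 was lower than lnc-31 siRNA 2, and in the other 3 the order was the opposite.

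Falls of this size were few. Limma called 12.4% of tested rows at an adjusted p under 0.05, 6.78% lower and 5.64% higher. Among called rows with a mean above 0 in both groups, 90 were at least 1.5-fold lower on the FPKM scale, 21 at least 1.8-fold, 11 at least 2-fold and 3 at least 3-fold. The 8 genes make up 8 of the 21, and 6 of the 11. Rises of at least 2-fold numbered 45. Counted on the log2(FPKM + 1) scale, 28 tested rows fell at least as far as Prkcb (-0.91). Of those, 17 were not called, and the 11 called rows were the 8 genes and Gm28011, RP24-275B23.1 and Sephs2.

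Gm28011 and RP24-275B23.1 had listed values of 0 with the siRNA against lnc-31, and stood at 3.76 and 7.39 FPKM and at 3.71 and 3.49 FPKM with scrambled siRNA. Sephs2, an enzyme of selenoprotein synthesis, was at 23.5 and 23.6 FPKM against 12.2 and 10.8 (log2 fold change -0.98). Just beyond the last of the 8 came Ergic1, a protein of the compartment between the endoplasmic reticulum and the Golgi, which was at 68.4 and 70.6 FPKM against 37.4 and 37.7 (-0.87). Gm26916 followed at 1.84 and 1.72 FPKM against 0.558 and 0.538 (-0.84), and Rqcd1, a subunit of the CCR4-NOT deadenylase complex, at 45.4 and 44.6 FPKM against 23.8 and 25.6 (-0.84). The step from Prkcb (-0.91) to Ergic1 was thus small beside the range within the 8.

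The rows whose 4 values lay closest to the median pattern of the 8 were sought by Euclidean distance between log2(FPKM + 1) values centred on each gene's mean. They were Sephs2 (distance 0.14), Ergic1 (0.15), Rqcd1 (0.18), Gm26916 (0.18) and the intramembrane protease gene Sppl2a (0.23), over 4 libraries. Sppl2a was at 28.9 and 31.4 FPKM against 16.4 and 17.4. This distance uses the same contrast by which the 8 were chosen, so it describes which rows resemble them and tests nothing.

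Partners of the 8 genes were taken from lists by function: 141 genes that share a complex, a family or a pathway with one of them. Of these, 103 had a row of their own and 99 were tested. Limma called 5 higher and 5 lower, 10.1% of the 99 against the 12.4% of all tested rows. The shares were 20.2% and 16.8% under quantile normalization and 17.2% and 16.6% under median of ratios scaling. They were 17.0% and 16.04% with a mean of 5 FPKM or more, and 15.2% and 14.0% with a replicate block. Partners stayed below all rows with pseudocounts of 0.1 (10.1% and 12.7%) and 0.5 (10.1% and 12.5%). The same held with no filter on low values (8.74% and 9.67%) and a constant prior variance (3.03% and 9.39%). The order of partners and background thus turned with the setting. The log2 fold changes of these partners had a median of -0.03. The lowest value of any tested partner was -0.41 (Ap1g1). In 41 of the 99 (41.4%) the groups did not overlap and were lower with the siRNA against lnc-31, beside 31.7% of all tested rows. An unadjusted limma p under 0.05 was found for 36 of the 99, 21 of them lower. The share of all tested rows under that limit was not counted. Neither this count nor those by list below can therefore be set against the background.

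Among direct subunits and paralogs, called core partners here, 19 were tested. Limma called 2 higher and 1 lower, 15.8% of the 19 against 12.4% of all tested rows. By list, core and wider together, the share called was 7.14% for the translocon, 4% for GPI anchor synthesis and 30% for the Rnf11 list. It was 7.14% for splicing, 14.3% for the clathrin coat and 7.69% for protein kinase C. Lists this small show no direction against the background.

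**Figure D2:**
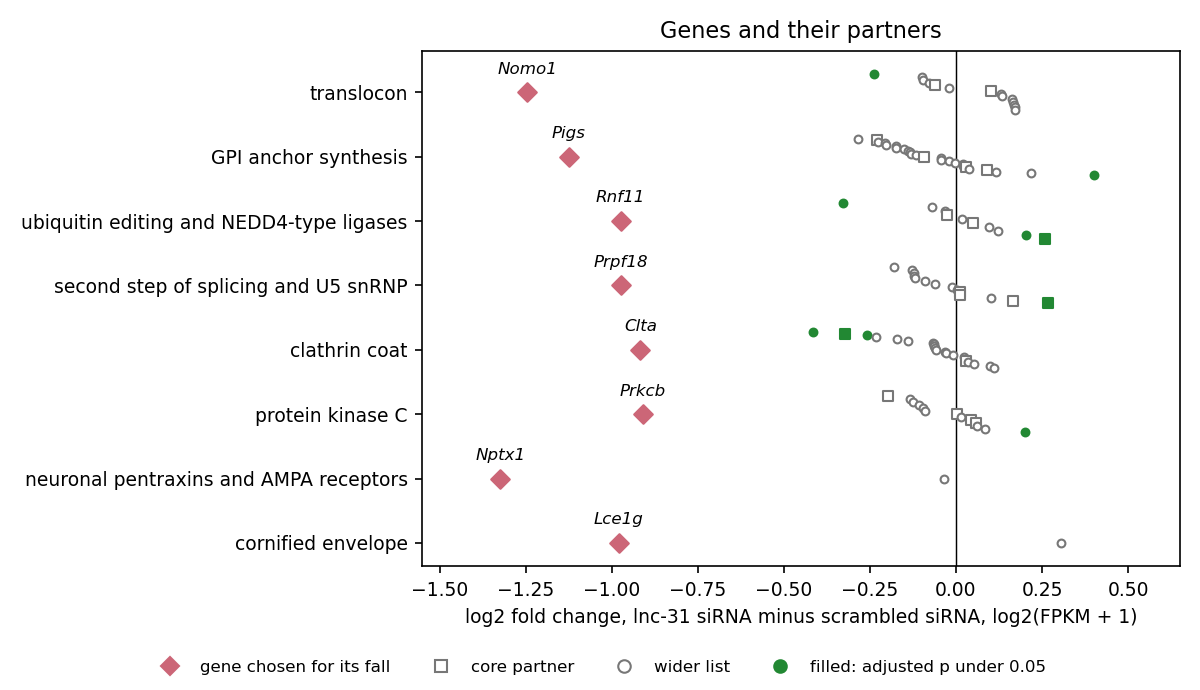
Each row shows the log2 fold change (libraries labelled lnc-31 siRNA minus scrambled siRNA, log2(FPKM + 1)) of one of the 8 genes (red diamond) and of the tested genes of its list, with squares for core partners, circles for the wider list and filled green symbols for an adjusted p under 0.05. The 99 partners lie between -0.41 and 0.40, and the 8 genes at -0.91 or below. The 8 genes were chosen for their falls, so this gap follows from the choice.

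The direct partners of Nomo1 were not called. Nicalin (Ncln) measured 53.6 and 55.5 FPKM with scrambled siRNA and 56.5 and 60.6 in libraries labelled lnc-31 siRNA (log2 fold change 0.10, 95% interval -0.02 to 0.23), and Tmem147 at 50.4 and 49.9 against 47.0 and 49.0 FPKM (-0.06, interval -0.17 to 0.04). Neither had an unadjusted p under 0.05 in limma. Nomo1 thus went from 0.543 ± 0.015 of the mean FPKM of these partners to 0.215 ± 0.016 (SD, n = 2 each).

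Of 14 tested translocon genes 1 fell, Tmco1, a multipass protein of the translocon, by 0.24 on the log2 scale (SE 0.046, limma adjusted p = 0.032). The list's median was 0.12, and 7 of the 8 genes with an unadjusted p under 0.05 were higher. Ccdc47 shares its row with Strada and was not counted.

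The other subunits of the GPI transamidase were not called either. Pigk measured 15.96 and 17.0 FPKM with scrambled siRNA and 16.1 and 17.7 in the other libraries, Pigt at 53.2 and 52.0 against 49.2 and 49.4, and Pigu at 26.3 and 27.6 against 27.9 and 29.6. Gpaa1 was at 48.6 and 53.5 FPKM against 42.7 and 44.0 (log2 fold change -0.23, limma, adjusted p = 0.059), with groups that did not overlap. It passed the test at adjusted p = 0.029 to 0.049 under quantile normalization, median of ratios scaling, a mean of 5 FPKM or more, or a replicate block.

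Pigs went from 0.827 ± 0.012 to 0.389 ± 0.030 of the mean FPKM of these subunits (SD, n = 2 each). Across 25 tested genes of GPI anchor synthesis, from the first sugar transfer to anchor remodelling, the median was -0.09. One passed limma's test, Dpm2, a subunit of dolichol phosphate mannose synthase, which rose to 58.9 ± 0.587 FPKM from 44.4 ± 2.86 FPKM (log2 fold change 0.40, adjusted p = 0.014). Of 8 with an unadjusted p under 0.05, 6 were lower.

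In the group around Rnf11, the A20 gene Tnfaip3 measured 2.67 and 2.31 FPKM with scrambled siRNA and 2.71 and 2.51 in libraries labelled lnc-31 siRNA, and the ligase gene Itch was at 19.6 and 18.8 against 18.4 and 19.3. The groups overlapped in both. Tax1bp1, an adaptor of the same complex, rose to 51.3 ± 2.47 FPKM from 42.7 ± 1.12 FPKM (log2 fold change 0.26, limma, adjusted p = 0.033). Rnf11 went from 2.70 ± 0.0092 to 1.198 ± 0.012 times the mean FPKM of these 3 partners (SD, n = 2 each).

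Of 10 tested genes of this list, 2 rose and 1 fell (30% called, beside 12.4% of all tested rows). Of 4 with an unadjusted p under 0.05, 1 was lower. Nedd4, the founding member of the NEDD4-type ubiquitin ligases, rose to 350 ± 1.83 FPKM from 304 ± 2.23 FPKM (log2 fold change 0.20, limma, adjusted p = 0.034). The deubiquitinase Stambp fell to 7.18 ± 0.312 FPKM from 9.27 ± 0.429 FPKM (-0.33, adjusted p = 0.033).

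Of the second-step splicing factors set beside Prpf18, 1 of 4 passed the test, and it was higher. Cdc40, which acts at the same step, measured 23.0 and 24.6 FPKM with scrambled siRNA and rose to 28.5 and 29.2 (log2 fold change 0.27, limma, SE 0.050, adjusted p = 0.029). Slu7, a binding partner of Prpf18, was at 15.3 and 14.5 FPKM against 16.5 and 17.3 (0.16, adjusted p = 0.11), a difference that did not pass the test. The helicases Dhx8 and Dhx38 had log2 fold changes of 0.01 each, with 95% intervals of -0.11 to 0.13 and -0.10 to 0.13.

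Prpf18 thus went from 1.06 ± 0.028 to 0.462 ± 0.0079 of the mean FPKM of these 4 factors (SD, n = 2 each). Of 14 tested genes of the second step and the U5 snRNP, Cdc40 was the 1 that passed. The median was -0.04, and of 7 with an unadjusted p under 0.05, 5 were lower (Prpf8, Prpf3, Prpf4, Snrnp200 and Dhx15).

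In the clathrin coat the other light chain was also lower. Its gene, Cltb, measured 14.96 and 17.2 FPKM with scrambled siRNA and 12.8 and 12.5 in libraries labelled lnc-31 siRNA (log2 fold change -0.32, limma, SE 0.075, adjusted p = 0.048). The heavy chain Cltc was at 132 and 130 FPKM against 136 and 131 (0.03, 95% interval -0.07 to 0.13). Both light chains together went from 1.53 ± 0.073 to 0.822 ± 0.069 times the FPKM of the heavy chain, and Clta from 92.0% ± 0.52 to 88.5% ± 0.87 of light chain FPKM (SD, n = 2 each).

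The call of Cltb was also lost with no filter on low values (adjusted p = 0.059) and with a replicate block (0.053). Of 21 tested coat genes 3 fell and none rose, so 14.3% were called lower, beside 6.78% of all tested rows. The others were the AP-1 subunit Ap1g1, from 37.6 ± 1.67 to 27.97 ± 1.54 FPKM (log2 fold change -0.41, limma, adjusted p = 0.015), and the endocytic adaptor Epn2 (-0.26, adjusted p = 0.037). The median of the list was -0.06, and all 6 genes with an unadjusted p under 0.05 were lower. No share of all tested rows under that limit stands beside this count.

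Limma called none of the 4 other protein kinase C genes tested, and 1, Prkci, had an unadjusted p under 0.05. Prkca, which like Prkcb answers to calcium and diacylglycerol, measured 15.05 and 15.2 FPKM with scrambled siRNA and 15.9 and 15.6 in the other libraries (log2 fold change 0.06, 95% interval -0.06 to 0.17). Prkcd and Prkce had log2 fold changes of 0.04 and 0.004, and Prkci one of -0.20 (limma, adjusted p = 0.053). Prkci passed the test at adjusted p = 0.042 to 0.046 under quantile normalization, median of ratios scaling or a mean of 5 FPKM or more.

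Prkcb thus went from 0.260 ± 0.028 to 0.103 ± 0.0089 of the FPKM of Prkca (SD, n = 2 each). Of 13 tested genes of this list the kinase C substrate Marcks was the 1 that passed, with a rise from 83.1 ± 1.57 to 95.6 ± 2.79 FPKM (log2 fold change 0.20, limma, adjusted p = 0.040). Of 3 with an unadjusted p under 0.05, 2 were lower.

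**Figure D3:**
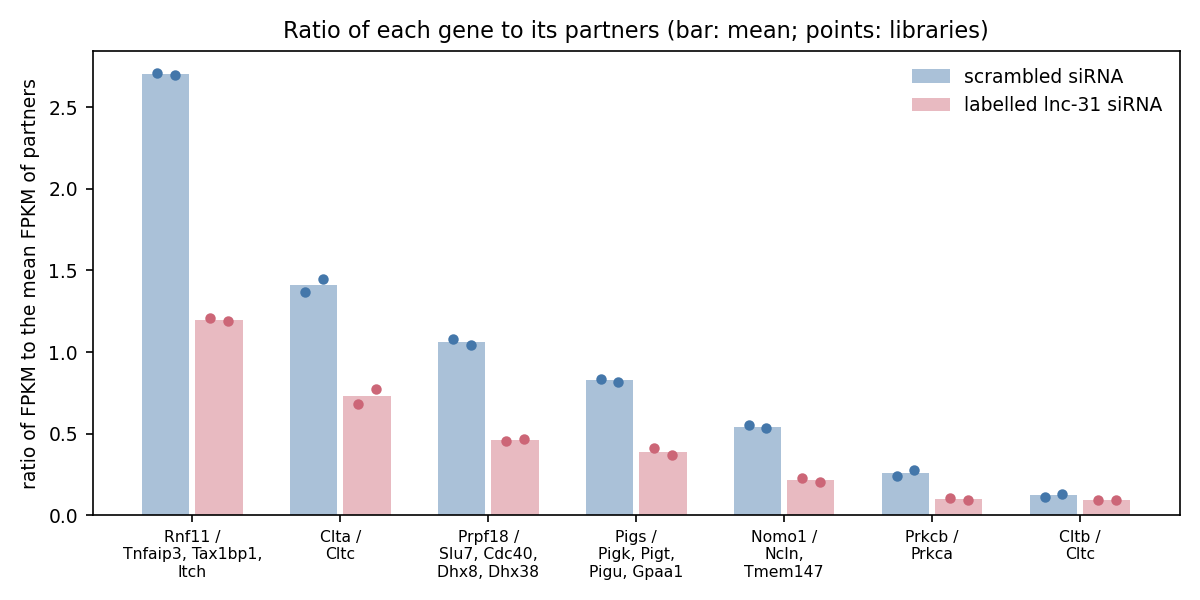
Bars show, for each gene named first, the mean ratio of its FPKM to the mean FPKM of the partners named after it in the scrambled siRNA libraries (blue) and in those labelled lnc-31 siRNA (red), and points show single libraries. Rnf11 goes from 2.70 to 1.198 and Nomo1 from 0.543 to 0.215, while Cltb over Cltc goes from 0.123 to 0.0944. Each gene named first, except Cltb, was chosen for its fall, so the drop of its ratio follows from the choice.

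The calls among partners depended on all 4 libraries. With 1 library left out, Dpm2 passed limma's test when scrambled siRNA 2 (adjusted p = 0.040) or lnc-31 siRNA 1 (0.048) was the one left out, and Ap1g1 passed without lnc-31 siRNA 1 (0.033). The other 8 called partners passed in none of the 4 such fits, with adjusted p-values from 0.053 to 0.17. With a constant prior variance, Dpm2, Ap1g1 and Stambp passed, and the other 7 did not (adjusted p = 0.053 to 0.080).

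For Nptx1 and Lce1g the table offers few partners. Nptx2 and the AMPA receptor genes Gria2, Gria3 and Gria4 have no row, and the pentraxin receptor Nptxr shares a row with Cbx6 and Npcd, which measured 71.8 and 74.4 FPKM with scrambled siRNA and 64.2 and 66.1 in the other libraries. Ptx3, a soluble pentraxin, had a log2 fold change of -0.03. None of 13 other Lce1 genes listed has a row. Of the cornified envelope list, Sprr1a was tested (log2 fold change 0.31, limma, adjusted p = 0.32) and Lor was below the filter.

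Markers of the cell types in which Nptx1 and Lce1g are best known were mostly missing. Of 6 neuron markers, 2 had a row (Stmn2 and Syn1), with a summed level of 58.3 and 63.7 FPKM with scrambled siRNA and 59.9 and 62.2 with the siRNA against lnc-31. Snap25, Syp, Rbfox3 and Elavl4 had none. Of 7 keratinocyte markers, 2 had a row (Krt14 and Krt10), with summed levels of 23.1 and 23.7 FPKM against 20.4 and 21.5, and Krt5, Krt1, Trp63, Dsg3 and Dsc3 had none. Limma called none of these 4 markers (2 had an unadjusted p under 0.05, Syn1 higher and Krt14 lower), and both sums of keratinocyte markers were lower with the siRNA against lnc-31.

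The 8 genes are scattered over the genome. Coordinates are those of RefSeq on GRCm38.p6, which shares them with mm10. Nomo1 (46033696 to 46084212) and Prkcb (122289104 to 122634402) lie on chromosome 7, Pigs (78328422 to 78342776) and Nptx1 (119538719 to 119547820) on chromosome 11, and Clta (44003816 to 44032846) and Rnf11 (109452857 to 109476505) on chromosome 4. Prpf18 lies on chromosome 2 (4622058 to 4652135) and Lce1g on chromosome 3 (92750151 to 92752338). Chromosome 4 also holds Mir31 and 6.24% of the tested rows that matched RefSeq.

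Of 46 tested genes within 250 kb of one of the 8, limma called 3 lower and 1 higher, 8.70% against 12.4% of all tested rows. Under some other settings the share was above that of all rows. It was 19.6% against 16.8% under quantile normalization and 21.7% against 16.6% under median of ratios scaling. With a mean of 5 FPKM or more it was 19.5% against 16.04%, and with a replicate block 19.6% against 14.0%. Under others it was below. These were pseudocounts of 0.1 (10.9% against 12.7%) and 0.5 (8.70% against 12.5%), no filter on low values (8.70% against 9.67%) and a constant prior variance (8.70% against 9.39%). No direction against the background can be read from these counts. The median log2 fold change of the neighbours was -0.03 and the lowest -0.44. Unc119, 0.719 kb from Pigs, measured 15.1 and 17.3 FPKM with scrambled siRNA and 17.1 and 17.3 in the other libraries. Gne, 1.229 kb from Clta, had a log2 fold change of 0.11, Frmd4a, 8.015 kb from Prpf18, one of 0.13, and Spag5, 5.965 kb from Pigs, one of -0.16. None of these passed the test. Endov by Nptx1, Ccdc114 by Nomo1, Gm4202 by Lce1g, Eps15 by Rnf11, Glipr2 by Clta and Sephs1 by Prpf18 were also nearest genes on one side, with log2 fold changes from -0.18 to 0.25 and no call. Of 13 nearest genes within 250 kb, the remaining 3, Rptor, Plk1 and Cdkn2c, were called lower. Of all tested rows 6.78% were called lower. Whether position has a part in these calls was not tested.

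The called neighbours were Rptor, the mTOR complex scaffold 55.1 kb from Nptx1, which fell to 11.7 ± 0.0515 FPKM from 16.2 ± 0.402 FPKM (log2 fold change -0.44, limma, adjusted p = 0.0096), Plk1, a mitotic kinase by Prkcb (-0.27, adjusted p = 0.017), Cdkn2c, a cell cycle inhibitor by Rnf11 (-0.30, adjusted p = 0.017), and Traf4, a signalling adaptor by Pigs (0.37, adjusted p = 0.017). With 1 library left out, Rptor lost its call without scrambled siRNA 2 (adjusted p = 0.060), Traf4 without scrambled siRNA 1 (0.073) or lnc-31 siRNA 2 (0.064), and Plk1 and Cdkn2c in each of the 4 fits (0.053 to 0.091).

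**Figure D4:**
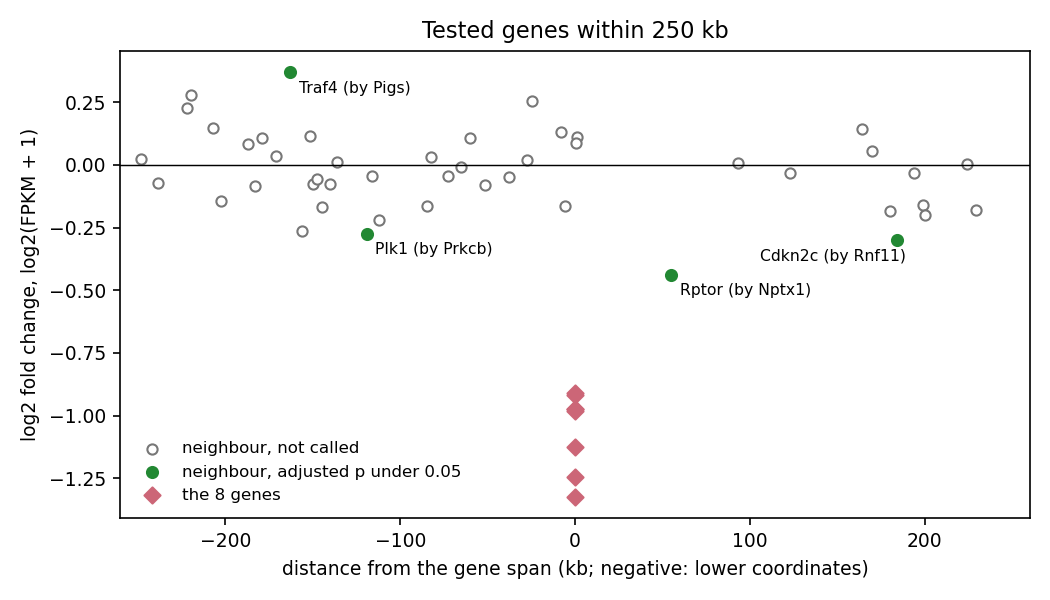
Circles show the log2 fold change of the 46 tested genes within 250 kb of one of the 8 genes against their distance in kb from its span, with green for an adjusted p under 0.05, and red diamonds at 0 kb show the 8 genes. The neighbours lie between -0.44 and 0.37, and the 8 genes at -0.91 or below. The 8 genes were chosen for their falls, so this gap follows from the choice.

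The pull-down gave a readout that played no part in choosing the genes. The lnc-31 probes gave 596 peaks and the lacZ probes 476. None of the 8 genes held a peak of either kind in its span, and none did with 1000 bases added on both sides. Of the tested rows matched to RefSeq, 2.01% held a lnc-31 probe peak and 1.93% a lacZ peak, so that 0 of 8 is near the background. None of the 46 neighbours held a peak.

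Of 140 listed partners with a RefSeq position, 2 held lnc-31 probe peaks and 2 held lacZ peaks. The shares of tested rows matched to RefSeq were 2.01% and 1.93%. Of all 141 listed partners 99 were tested, while this background holds tested rows only. Peaks were counted over the whole gene span, and no comparison was made with genes of like length or expression. Plcb1, a phospholipase upstream of protein kinase C, held 7 lnc-31 probe peaks and 1 lacZ peak within its span on chromosome 2. The widest was 800 bases, at 135473201 to 135474000. Pigv, a mannosyltransferase of GPI anchor synthesis, held 1 lnc-31 probe peak of 400 bases (chromosome 4, 133661401 to 133661800), and Prkca held 6 lacZ peaks and no lnc-31 probe peak. With 1 library per probe set these counts have no replicate check. In the knockdown Plcb1 had a log2 fold change of 0.02 and Pigv one of 0.02.

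Promoter sequence from RefSeq (GRCm38.p6) was at hand for 5 of the 8 genes, Nomo1, Pigs, Clta, Prkcb and Lce1g. The 120 bases before an annotated start are shown to let the promoters of genes that fell together be compared. That start is not always the outer end of the gene span given above. The windows of Clta lie inside its span, and the window of Prkcb ends inside its span. Capitals mark the motifs searched, on both strands. The TATA box was searched as TATAAA and the box known for NF-Y binding as CCAAT. The GC box known for Sp1 binding was searched as GGGCGG, and the E-box of many helix-loop-helix factors as CACGTG.
Nomo1, chr7:46033576-46033695, plus strand: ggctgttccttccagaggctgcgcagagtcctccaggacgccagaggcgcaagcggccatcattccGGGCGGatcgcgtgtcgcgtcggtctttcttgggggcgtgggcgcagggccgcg
Pigs, chr11:78328302-78328421, plus strand: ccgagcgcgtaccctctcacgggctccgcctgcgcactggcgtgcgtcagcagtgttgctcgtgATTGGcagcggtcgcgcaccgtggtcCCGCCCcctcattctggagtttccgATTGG
Clta, the second of 2 windows in the table, chr4:44012550-44012669, plus strand: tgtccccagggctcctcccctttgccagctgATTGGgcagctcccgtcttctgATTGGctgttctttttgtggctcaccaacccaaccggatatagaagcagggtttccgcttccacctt
Prkcb, chr7:122289005-122289124, plus strand: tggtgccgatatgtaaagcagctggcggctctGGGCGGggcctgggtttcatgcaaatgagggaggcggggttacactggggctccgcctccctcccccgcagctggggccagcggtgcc
Lce1g, chr3:92752339-92752458, minus strand: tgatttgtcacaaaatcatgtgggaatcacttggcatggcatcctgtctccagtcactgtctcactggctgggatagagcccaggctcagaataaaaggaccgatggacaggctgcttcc

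The promoters had no motif of this set in common. In the 250 bases before a start, GGGCGG or its reverse was found at Nomo1, Pigs, Prkcb and the first window of Clta, and in 32.7% of all 32851 promoters of the table. CCAAT or its reverse was found at Pigs and the second window of Clta, and in 33.8% of all promoters. TATAAA and CACGTG were found at none of the 6 windows, against 12.4% and 6.02% of all promoters.

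Nomo1, Pigs and Prkcb held 18, 18 and 17 CpG dinucleotides in these 250 bases, the windows of Clta 3 and 9, and Lce1g 1, beside a median of 6 over all promoters. GC content ran from 46% (Lce1g) to 65.2% (Prkcb), with a median of 52.4% over all promoters. A match or its absence describes these letters in this window only.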

How the data were processed

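Per the submitters' processing notes, the deposited FPKM values of the knockdown are tied to mm10 and to TopHat2, Cuffdiff, Bowtie2, BWA, Trimmomatic and CASAVA, named without roles, from stranded mRNA libraries per the labels' protocols. The peak lists come from amplified pull-down libraries, with the peak caller not given in the sources used here, and the deposited value per peak, read as a p-value from its range, was not used. The input library was not analysed here. There were 0 sample columns without a label.

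Rows with a mean of at least 1 FPKM were compared as log2(FPKM + 1) with limma 3.58.1 in R 4.3.3 (trended prior variance, two-sided, Benjamini-Hochberg at 0.05 over all 11500 rows). The fit was run on simulated data with independent noise of the spread it had estimated. That run does not bear on whether the replicates were separate cultures. The genes and lists were chosen with earlier results of these data known. Named were the 8 genes, core partners, called partners (up to 4 per list), steeper or next rows, nearest and called neighbours within 250 kb, and the 5 rows most alike. Of tested rows, 89.6% matched RefSeq by symbol. Peaks were assigned to a gene by an overlap of at least 1 base with its span. Alternatives were other pseudocounts, filters, scalings, a constant prior variance, a replicate block, each library left out, and other windows. Tables and plots used numpy 2.4.6, pandas 2.3.3 and matplotlib 3.10.9 in Python 3.11.15.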

Additional observations from a re-analysis of the deposited data

How the results depend on the processing

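All 8 genes kept a negative log2 fold change in each alternative that tested them, while a mean of 5 FPKM or more left out Prkcb, Nptx1 and Lce1g. Their median (-0.98) was -1.20 with a pseudocount of 0.1, -1.11 with 0.5 and -0.997 under quantile normalization, and -1.01 to -0.96 with 1 library left out. Called rows, 1429 in all (780 lower, 649 higher), numbered 260 to 491 with 1 library left out (97 to 242 lower, 132 to 266 higher). They numbered 1935 under quantile normalization, 1910 under median of ratios scaling and 1613 with a replicate block. Of the partners, 5 were called lower and 5 higher. Lower calls numbered 8 with a mean of 5 FPKM or more, 9 under quantile normalization, 8 under median of ratios scaling and 2 with a constant prior variance. Higher calls numbered 11, 9 and 1 under quantile normalization, median of ratios scaling and a constant prior variance. With 1 library left out, 0 to 1 were called in each direction. Called neighbours, 4 within 250 kb, numbered 8 with a mean of 5 FPKM or more, 9 under quantile normalization, 10 under median of ratios scaling, 1 to 3 with 1 library left out, and 17 within 1000 kb. The 1000 kb window held 174 tested genes against 46 within 250 kb, so these 2 counts cannot be compared directly. At the main setting the shares called were 9.77% and 8.70%, both below the 12.4% of all tested rows. The replicate block gave 9 partners called higher and 9 neighbours called. Same-numbered deviations had a correlation of -0.094 across genes. With 2 numbers, this cannot settle whether the samples were paired. The cause of these shifts was not tested. The number of reads is unknown, so depth sets no stated limit.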
